A study of Macaca mulatta with 17 samples.

Results

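The junction genes described here are 10 genes of the epithelial cell border: the claudins CLDN1, CLDN3, CLDN4, CLDN7, CLDN8 and CLDN10, occludin (OCLN), the scaffold proteins TJP1 and TJP3, and E-cadherin (CDH1). A gene was taken up when the array's description of a non-control probe named its symbol, and the brightest probe over all arrays was to stand for it. The members were thus to be chosen by symbol and, among probes of a symbol, by brightness. The rule found 9 of the 10 genes among 16549 named genes and 20217 probes. Each of the 9 had 1 probe, so brightness chose nothing. TJP3 was named by no description. A probe described as similar to TJP3 is given apart from the 9 and is left out of every count of them. The genes were listed with earlier results of these data known, so their counts are descriptions and not independent evidence.

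RNA came from 1 frozen sagittal side of the uterus, cut from fundus to cervix, of single female rhesus macaque fetuses, and 17 fetuses gave 17 single-color arrays on 6 slides. Dams ate a daily fruit treat with 400 µg/kg deuterated bisphenol A (BPA, a plastics monomer that can act on estrogen receptors) or with its vehicle, ethanol. Treatment ran from gestational day (GD) 50 to 100 in the GD100 groups (5 control, 5 BPA), which were delivered by caesarean section on GD100. It ran from GD 100 to birth in the GD165 groups (4 control, 3 BPA), which were born vaginally on GD 165 to 168, so that gestational age cannot be told apart from delivery mode or from treatment window. The dams of the controls received ethanol vehicle daily at both ages.

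Tight junctions close the space between neighboring epithelial cells just below their apical surface. Claudins and occludin span the membrane there, the TJP (zonula occludens) proteins bind their tails and tie them to actin, and the set of claudins decides whether the seal is tight or passes selected ions. Adherens junctions, just beneath, hold cells together through E-cadherin and the catenins, and the luminal and glandular epithelium of the uterus carries both.

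Each probe is a 60-base sequence, of which a stretch of 30 bases is printed for the 5 tight junction genes on which the results turn and for CDH1, all with 1 probe each. They show what was hybridized and how little the probes share, and AATAAA, the usual signal for cleavage and polyadenylation of an RNA, is in capitals.
CLDN10: tggatgaatgtagtattttcctgaagtgtg
CLDN3: tgatatttttcAATAAAagcctttcgtttt
CLDN4: tgcatcggtgttggccactgtccccattta
OCLN: tAATAAActccctggcctttcatattttag
TJP1: ctatgttctgttaatcattaggtgtgactg
CDH1: acaagctgagaaaagtattctcaaagatgc
The OCLN stretch is bases 1 to 30 of its probe, and the others are bases 31 to 60. AATAAA was searched in the probes as the files give them and, as TTTATT, on the other strand. It stood in the probes of CLDN3 and OCLN and in 12.8% of all probes, and TTTATT stood in the probe of CLDN8 and in 4.67% of all probes. The longest run of bases shared by any pair of the 10 probes, the claudins included, was 8.

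Levels are log2 signals after scaling each array to a common 75th percentile (12.62), and a level is comparable between animals for 1 probe, not between probes. A probe was measured on an array when all its spots were flagged well above background. That held on all 17 arrays for CLDN1, CLDN3, CLDN4, CLDN7, OCLN, TJP1, CDH1 and the probe similar to TJP3. CLDN10 was measured on 8 of 17 arrays and CLDN8 on 2 of 17. No spot of these probes was saturated on any array (0 of 17). Over all arrays, 83.8 to 89.0% of spots were well above background. HOXA10, HOXA11 and ESR1, which mark the uterus, and the simple-epithelium keratins KRT7 and KRT18 were measured on 17 of 17 arrays. The first 3 belong to a list of 6 markers of position along the tract. In each group 5 of the 6, HOXA9 and HOXA13 among them, were measured on every array, and PGR on no array. KRT8, the usual partner of KRT18, was measured on 14 and its probe lay between 3.84 and 5.38 throughout. The mean over 29 squamous-epithelium genes stood apart in 1 animal. GD165 control replicate 6 had a mean level of 9.70 over them, against 7.21 to 8.01 in the other GD165 controls. KRT13 reached 15.59 in that animal. KRT5 was high in more than 1 GD165 control, with a median of 14.56 there against at most 13.78 in GD100 controls.

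**Figure D1:**
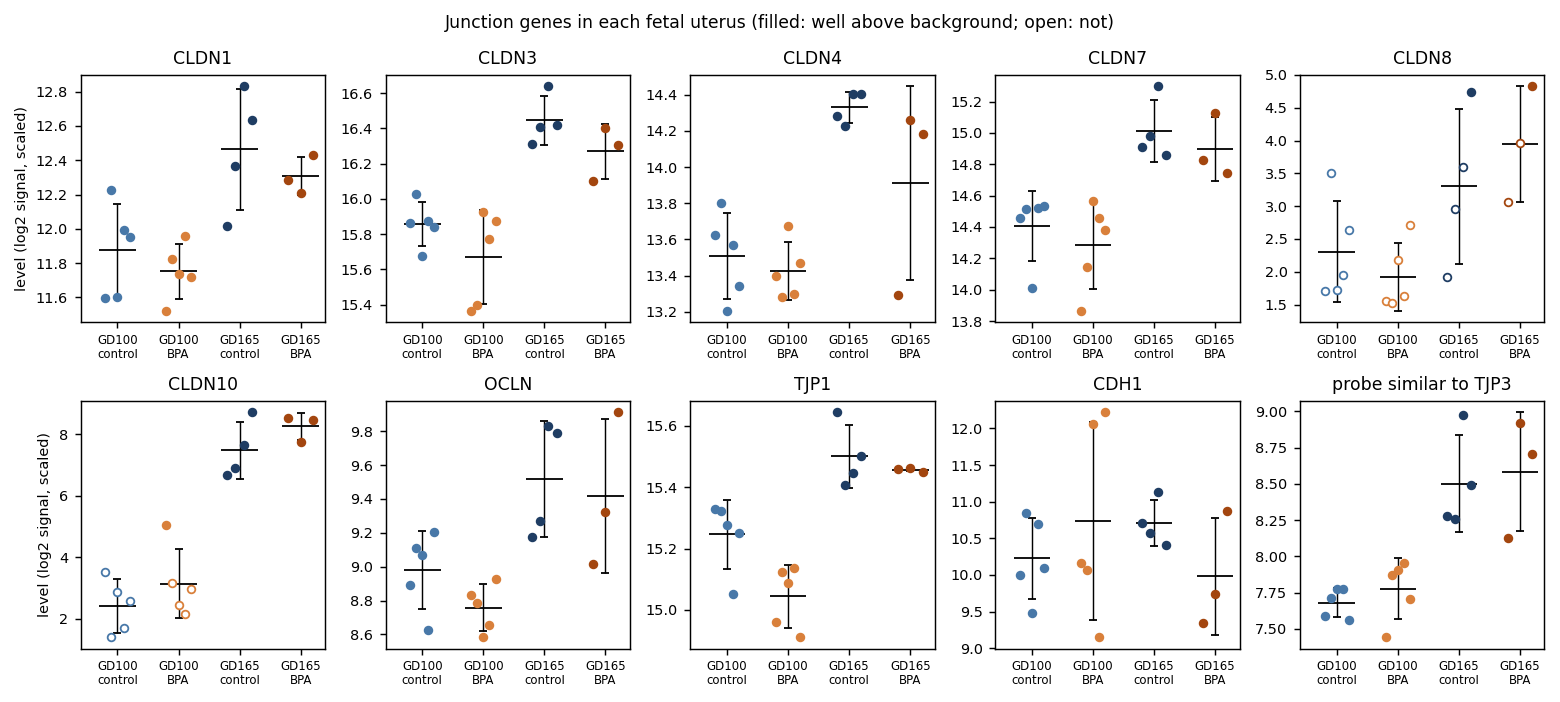
Levels (log2 signal scaled to a common 75th percentile, y axis) of the 9 junction genes and of the probe similar to TJP3 in each fetal uterus, by group (x axis); lines are means and bars 1 SD, and open points were not well above background. CLDN10 separates the ages in full, CLDN3 sits higher in each GD165 animal than in each GD100 animal, and CDH1 spreads widest within the GD100 BPA group.

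Between GD100 and GD165 control uteri, 3 of the 9 junction genes rose and 0 fell in limma's test at an adjusted p of 0.01, where 6.32% of all probes rose and 5.2% fell. The 3 were CLDN10, at least 13.9-fold higher at GD165, CLDN4, 1.77-fold higher, and CLDN3, 1.5-fold higher. At an unadjusted p of 0.05, 7 of the 9 passed, against 33.1% of all probes (11.5% at the adjusted threshold, either direction). All 9 had a positive log2 difference, as had 50.5% of all probes, and the median of the 9 was 0.59 against 0.00460 over all probes. In 5 of the 9 the groups did not overlap with GD165 higher, against 9.51% of all probes, and in 0 with GD165 lower, against 9.9%. Without GD165 control replicate 6, the animal with the highest squamous mean, CLDN10 was the 1 gene called. Calls over all 20217 probes also fell then, to 815 higher and 697 lower, against 1277 and 1051 with it. In bulk tissue, fewer cells of a type and less RNA per cell cannot be told apart.

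CLDN10, which forms pores for ions between cells, changed most. The 5 GD100 controls gave 3.53, 1.39, 2.85, 1.69 and 2.59, none of them well above background (0 of 5). The 4 GD165 controls gave 6.67, 6.91, 7.65 and 8.73, and all were measured. The gap between the nearest animals of the groups is thus wider than the range inside either group. The difference had an adjusted p of 3.77e-05 by limma. The bound sets the GD165 mean, 7.49, against 3.69, the lowest signal that counts as well above background at GD100, and it was 10.4 to 16.8 with any 1 animal left out. CLDN10 also passed with slide as a fixed block (limma, adjusted p = 0.0038). The spots of its probe differed by up to 1.58 on the log2 scale within an array.

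In BPA-exposed uteri CLDN10 also rose with age (limma, adjusted p = 0.000134). The GD100 BPA animals gave 5.03, 3.15, 2.43, 2.14 and 2.95, and only replicate 1, the highest, was measured (1 of 5), so neither a fold nor a log2 difference is given. The GD165 BPA animals gave 8.54, 7.76 and 8.48, and all 3 lay above every GD100 animal. Whether the rise differed between the arms cannot be read from GD100 signals this close to background.

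CLDN3, CLDN4 and CLDN7 are claudins of simple epithelia that tighten the seal. CLDN3 was 15.86, 16.03, 15.68, 15.88 and 15.84 in GD100 controls and 16.31, 16.41, 16.64 and 16.42 in GD165 controls. In BPA-exposed animals CLDN3 was 15.36, 15.40, 15.93, 15.78 and 15.88 at GD100 and 16.10, 16.40 and 16.31 at GD165. With or without BPA, every GD165 animal lay above every GD100 animal of its arm, with a narrow gap between the nearest animals. The log2 difference of CLDN3 was 0.59 ± 0.13 (SE) in controls (limma, adjusted p = 0.00398) and 0.60 ± 0.14 with BPA (limma, adjusted p = 0.00688). CLDN3 missed the threshold in controls without GD165 control replicate 6 (adjusted p = 0.0112), without GD165 control replicate 5 (0.0136) or without GD100 control replicate 3 (0.0117), while its difference stayed between 0.52 and 0.63 with any 1 animal left out. With BPA the CLDN3 call was lost without GD100 BPA replicate 1, 2 or 4, GD100 control replicate 1, or GD165 BPA replicate 4 or 5 (adjusted p from 0.0101 to 0.0403). With slide as a fixed block the difference of CLDN3 was 0.66 in controls (adjusted p = 0.0115) and 0.55 with BPA (adjusted p = 0.0481). Within slides it was 0.73 (C) and 0.47 (E) in controls and 0.43 (B) with BPA.

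CLDN4 was 13.63, 13.80, 13.20, 13.57 and 13.34 in GD100 controls and 14.28, 14.23, 14.40 and 14.40 in GD165 controls. The GD165 controls were close together and above every GD100 control, and the log2 difference was 0.82 ± 0.17 (SE; limma, adjusted p = 0.00355). CLDN4 missed the threshold in controls without GD165 control replicate 6 (0.80, adjusted p = 0.013), without GD100 control replicate 3 (0.74, adjusted p = 0.0104) and with slide as a fixed block (0.99, adjusted p = 0.0114). In BPA-exposed animals CLDN4 was 13.40, 13.28, 13.68, 13.30 and 13.47 at GD100 and 13.29, 14.26 and 14.19 at GD165. GD165 BPA replicate 3 stood at the level of the GD100 animals and the other 2 at that of the GD165 controls. The difference with age was 0.49 with BPA (limma, adjusted p = 0.081). It was 0.80 without GD165 BPA replicate 3 (adjusted p = 0.00295) and 0.31 without GD165 BPA replicate 4 (adjusted p = 0.338). Whether it passed thus turned on replicate 3. The rise with age was not shown to differ between the arms, since the difference of the differences was -0.33 (95% interval -0.88 to 0.21; limma, adjusted p = 0.794).

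CLDN7 was 14.46, 14.52, 14.01, 14.52 and 14.54 in GD100 controls and 14.91, 14.98, 15.30 and 14.86 in GD165 controls. The groups did not overlap, and its difference of 0.60 ± 0.15 (SE) was of the same size as that of CLDN3 but just missed the threshold (limma, adjusted p = 0.0111). It passed under 7 of 31 other settings, with adjusted p from 0.00598 to 0.056 over all of them. In BPA-exposed animals CLDN7 was 13.86, 14.15, 14.56, 14.46 and 14.38 at GD100 and 14.82, 15.13 and 14.74 at GD165, again without overlap. The difference there was 0.62 ± 0.17 (SE; limma, adjusted p = 0.0179).

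CLDN1, a sealing claudin found in simple and in stratified epithelia, did not pass in either arm. It was 11.60, 12.22, 11.60, 11.99 and 11.96 in GD100 controls and 12.02, 12.37, 12.83 and 12.63 in GD165 controls. Only GD100 control replicate 2 reached into the range of the GD165 controls. The difference was 0.59 ± 0.16 (SE; limma, adjusted p = 0.0173). CLDN1 passed in controls without GD100 control replicate 2 (0.68, adjusted p = 0.00914) and without GD165 control replicate 1 (0.74, adjusted p = 0.00465), and without GD165 control replicate 6 it was 0.53 (adjusted p = 0.0598). The BPA arm gave 11.52 to 11.96 at GD100 and 12.21 to 12.43 at GD165 without overlap, and 0.56 ± 0.18 (SE; adjusted p = 0.0365).

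CLDN8, known from tight epithelia such as the renal collecting duct, was close to background. It lay at 1.52 to 3.50 at GD100, where no array measured it (0 of 10). At GD165 the controls gave 1.92, 2.95, 3.60 and 4.74 and the BPA-exposed animals 3.06, 3.96 and 4.83, and only the highest of each group was measured. The 4.74 belongs to GD165 control replicate 6, the animal with the highest squamous mean, without which no GD165 control array measured CLDN8 (0 of 3). Neither arm passed (limma, adjusted p = 0.204 in controls, 0.552 in controls without that animal, and 0.0216 with BPA). No fold is given for either arm, since only the highest array of each GD165 group measured CLDN8. The spots of the CLDN8 probe differed by up to 1.79 on the log2 scale within an array, close to the 1.58 of CLDN10, against at most 0.21 for CLDN1, CLDN3, CLDN4 and CLDN7.

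OCLN, the first membrane protein found at tight junctions, did not pass in either arm. It was 8.89, 9.11, 9.07, 8.63 and 9.20 in GD100 controls and 9.17, 9.27, 9.83 and 9.79 in GD165 controls. The GD165 controls fell into a pair within the GD100 range or just above it and a pair well above it. The difference was 0.54 ± 0.18 (SE; limma, adjusted p = 0.0506), and 0.45 without GD165 control replicate 6 (adjusted p = 0.158). BPA-exposed animals spanned 8.58 to 8.93 at GD100 and 9.02 to 9.91 at GD165, with a difference of 0.66 ± 0.20 (SE; adjusted p = 0.0297), which was 0.41 without GD165 BPA replicate 5 (adjusted p = 0.163).

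TJP1 (ZO-1), a scaffold that also sits at junctions of endothelium and other cells outside epithelium, varied little, from 14.91 to 15.64 over the 17 arrays. It was 15.33, 15.32, 15.28, 15.05 and 15.25 in GD100 controls and 15.64, 15.41, 15.45 and 15.50 in GD165 controls, a difference of 0.25 ± 0.08 (SE; limma, adjusted p = 0.0316). In BPA-exposed animals it was 14.96, 15.12, 15.09, 15.14 and 14.91 at GD100 and 15.46, 15.46 and 15.45 at GD165. The GD165 BPA animals were nearly equal (SD 0.0058), and TJP1 rose by 0.41 ± 0.09 (SE), or 1.33-fold (limma, adjusted p = 0.00386). That call was lost without any 1 of the 3 GD165 BPA animals (adjusted p from 0.0138 to 0.0178, differences 0.41 to 0.42) and with slide as a fixed block (0.39, adjusted p = 0.061). The age differences of the arms were not shown to differ (0.16, 95% interval -0.09 to 0.41; adjusted p = 0.781).

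The probe similar to TJP3, a further scaffold of the same family restricted mostly to epithelia, rose in both arms. It was 7.56 to 7.77 in GD100 controls and 8.28, 8.26, 8.98 and 8.49 in GD165 controls, which did not overlap. The difference was 0.82 ± 0.17 (SE; limma, adjusted p = 0.00315) in controls and 0.81 ± 0.19 (SE; adjusted p = 0.00697) with BPA. With slide as a fixed block the values were 0.66 (adjusted p = 0.0383) and 0.95 (adjusted p = 0.0186). With BPA, 6 single animals each ended the call when left out, with the largest adjusted p, 0.0494, without GD165 BPA replicate 4.

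CDH1, the cadherin of epithelial adherens junctions, passed in neither arm, and its difference was positive in controls and negative with BPA. GD100 controls gave 10.00, 10.84, 9.49, 10.70 and 10.10 and GD165 controls 10.72, 10.58, 11.13 and 10.41, a difference of 0.48 ± 0.55 (SE; limma, adjusted p = 0.601) with overlap. GD100 BPA animals gave 10.17, 10.06, 12.06, 9.15 and 12.22, and GD165 BPA animals 9.34, 9.74 and 10.87. Replicates 3 and 5 of the GD100 BPA group stood far above the other 3, and no other animal of any group reached them. The spots of the CDH1 probe agreed within 0.13 on every array. The difference with age in the BPA arm was -0.75 (SE 0.60; adjusted p = 0.403), the only negative one among the 9. It was -1.20 without GD165 BPA replicate 5 and -0.38 and -0.42 without GD100 BPA replicates 5 and 3, and the difference in controls was 0.30 without GD100 control replicate 3. CDH1 was the gene most open to the slides, as with slide as a fixed block the difference in controls was 1.33 (adjusted p = 0.0252) and with BPA -1.25 (adjusted p = 0.0617).

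In the BPA arm as a whole, 3 of the 9 genes rose with age (CLDN10, CLDN3 and TJP1) and 0 fell in limma's test, where 4.82% of all probes rose and 4.86% fell (9.68% in either direction). At an unadjusted p of 0.05, 8 of the 9 passed, against 34.5% of all probes. Without scaling between arrays 1246 of all probes were called higher and 389 lower, against 974 and 982 with it, and the same 3 of the 9 rose. Of the 9, 8 had a positive difference (44.7% of all probes) and 7 lay without overlap above the GD100 BPA group (11.7% of all probes), while 0 lay below it (15.4% of all probes). The median difference was 0.60 against -0.05 over all probes. With the compared groups fitted alone, CLDN10 was the 1 gene called. The 2 arms share no animals.

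**Figure D2:**
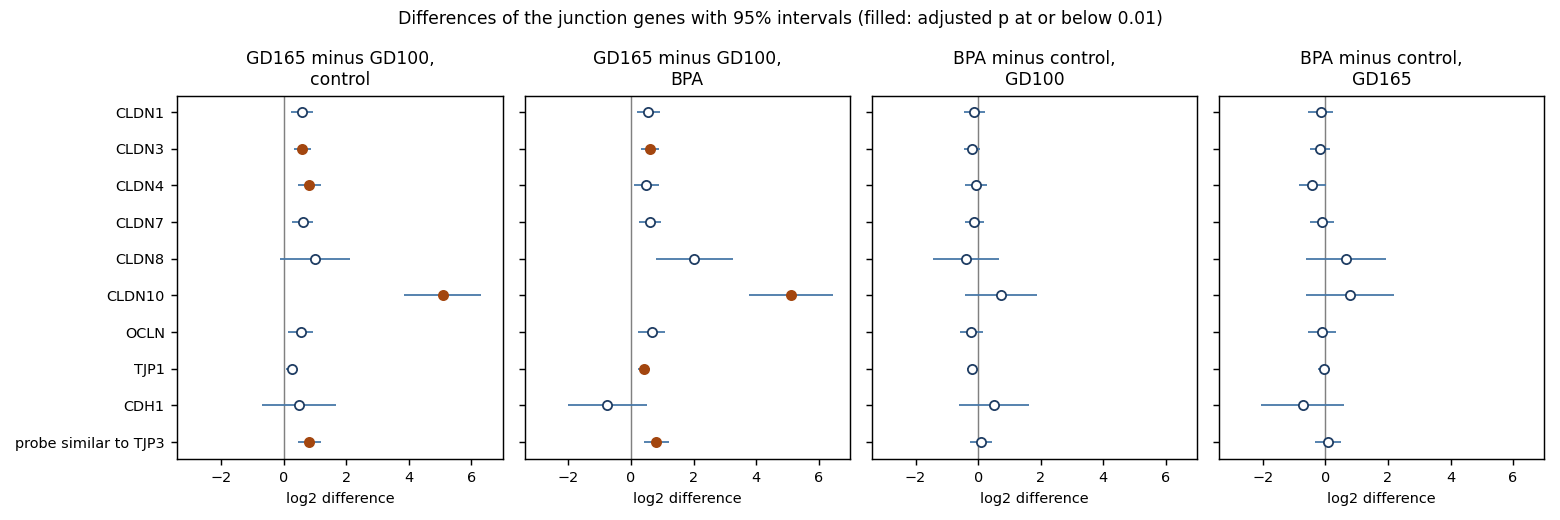
Log2 differences (x axis) of the 9 junction genes and the probe similar to TJP3 (y axis) in 4 comparisons; points are limma's estimates, lines 95% intervals, and filled points passed an adjusted p of 0.01. Filled points appear only in the 2 comparisons of age, and the fitted values of CLDN10 rest on GD100 signals near background.

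Between BPA-exposed and control uteri none of the 9 junction genes was called at either age, and none of all 20217 probes passed limma's test (0% called at GD100 and 0% at GD165). At an unadjusted p of 0.05, 1 of the 9 passed at GD100 (767 of all probes, 3.79%) and 0 of the 9 at GD165 (1740 of all probes, 8.61%). At GD100 the 1 gene was TJP1, lower with BPA by 0.20 (log2 difference -0.20, 95% interval -0.36 to -0.04; limma, adjusted p = 0.99993), with groups that overlapped. The GD100 controls enter both this comparison and that of age in controls.

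The intervals say how large a BPA effect could have been missed. At GD100 the 95% interval was -0.44 to 0.07 for CLDN3, -0.43 to 0.27 for CLDN4, -0.43 to 0.18 for CLDN7, -0.45 to 0.20 for CLDN1 and -0.59 to 0.15 for OCLN. The interval of CDH1 was -0.60 to 1.61. CLDN10 was near background in both GD100 groups, so no interval is given. For CLDN1, CLDN3, CLDN4, CLDN7 and OCLN this bounds a change with BPA to less than 1 log2 unit, and for CDH1 it does not.

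At GD165 the largest negative differences with BPA were those of CDH1 (-0.73, 95% interval -2.06 to 0.61; limma, adjusted p = 0.802) and CLDN4 (-0.42, 95% interval -0.84 to 0.003; limma, adjusted p = 0.58). For CLDN4 the difference was -0.59 to -0.11 with any 1 animal left out, and it was -0.11 without GD165 BPA replicate 3. CLDN3 differed by -0.18 (95% interval -0.48 to 0.13), CLDN7 by -0.11 (-0.49 to 0.26), CLDN1 by -0.15 (-0.55 to 0.24), OCLN by -0.10 (-0.55 to 0.35) and TJP1 by -0.04 (-0.23 to 0.15). CLDN10 was higher with BPA by 0.77 (95% interval -0.63 to 2.18; limma, adjusted p = 0.798). That difference was 0.50 to 1.19 with any 1 animal left out, and 1.19 without GD165 control replicate 6 (limma, adjusted p = 0.637). In both BPA comparisons 2 of the 9 had a positive difference, against 53.3% of all probes at GD100 and 44.7% at GD165, and the medians were -0.12 at GD100 and -0.11 at GD165 (all probes 0.01 and -0.02). In all 9 the groups overlapped at both ages, while at GD100 0.381% of all probes lay without overlap higher and 0.401% lower with BPA, and at GD165 2.07% and 5.24%. Within slide E, which held 1 GD165 control and 2 GD165 BPA animals, CLDN1 and CLDN7 had positive differences (0.23 and 0.07).

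The difference between the BPA effects at the 2 ages passed for 0 of the 9 genes and for 0% of all probes (limma; 0 of the 9 and 1584 of all probes, 7.83%, at an unadjusted p of 0.05). It was positive for 6 of the 9 and for 44.3% of all probes. It was widest for CDH1, at -1.23 (95% interval -2.97 to 0.50; adjusted p = 0.747).

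Levels minus their group means show which genes went up and down together among animals of a group. Over 17 arrays, which share slides and the array scaling, CLDN3 and CLDN7 had the highest Pearson's r of any pair (0.84), followed by OCLN with CLDN8 (0.73) and CLDN1 with CLDN8 (0.67), both of which rest on CLDN8 levels near background. CLDN3 also went with CLDN4 (0.62) and CDH1 (0.60). TJP1 stood apart, at -0.35 to 0.04 with the other genes, and CLDN10 ran opposite to CLDN7 (-0.60) and CLDN3 (-0.51), from levels that were not well above background in 9 of 10 GD100 animals. CLDN3 (0.82), CLDN7 (0.78), CLDN1 (0.68) and CLDN4 (0.66) followed the mean of the simple-epithelium markers, whereas CLDN10 (-0.39) and TJP1 (-0.32) did not. With the same mean r was 0.52 for CDH1, 0.21 for OCLN and 0.67 for CLDN8, whose levels were near background. For CLDN8 it was 0.74 without GD165 control replicate 6 (16 arrays). With the mean of the squamous markers r was 0.69 for CLDN8, 0.53 for OCLN, 0.49 for CLDN10 and 0.39 for CLDN1, and without GD165 control replicate 6 it was 0.56, 0.64, 0.26 and 0.49 (16 arrays). These values are descriptions and were not tested.

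**Figure D3:**
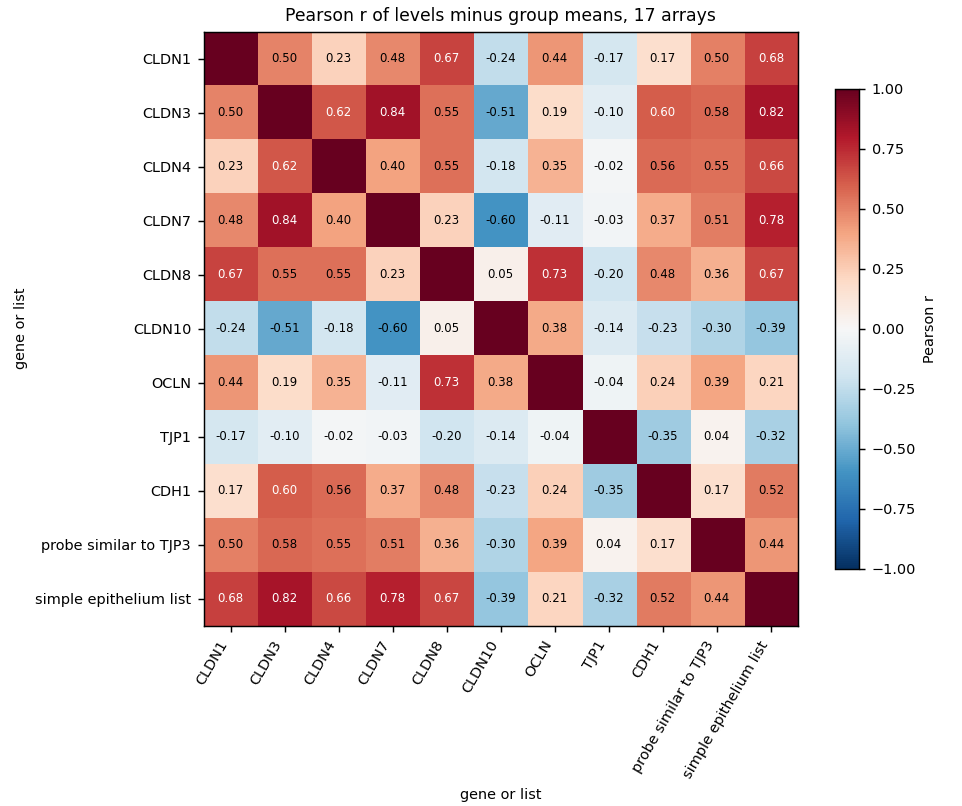
Pearson's r (color and number) between the levels of the junction genes, and of the mean of 22 simple-epithelium markers, after subtracting group means, over 17 arrays. CLDN3 and CLDN7 form the closest pair (0.84), and the TJP1 and CLDN10 rows hold most of the negative values.

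The named genes measured on every array that tracked each junction gene most closely inside groups were the following. CLDN3 went with MGC17299 (0.89), TEGT (0.88) and WFDC2 (0.84), and CLDN7 with TNFSF15 (0.86), RAB20 (0.85) and FRK (0.84). CLDN4 went with FLJ20291 (0.90), the epithelial transcription factor ELF3 (0.88) and ARHGAP10 (0.86), and CLDN1 with PLEK2 (0.91), FLJ42117 (0.88) and MSX1 (0.87). For CLDN10 they were HOXC8 (0.88), MDM2 (0.86) and MAB21L1 (0.86), and for CLDN8 PRKCBP1 (0.93), STARD10 (0.90). For OCLN they were FOXN4 (0.87), CDC25C (0.87) and TTK (0.85), and for TJP1 GLB1 (0.88), AP1GBP1 (0.83) and TLR4 (0.80). CDH1 had the weakest best match, with WDR34 (0.83), CD40 (0.79) and LECT1 (0.79), and the probe similar to TJP3 went with ANLN (0.89), FLJ40629 (0.86) and ARHGAP11A (0.83). Each is the highest among all named genes, so its size owes much to selection. CLDN8 itself was measured on only 2 arrays and CLDN10 on only 8. The matches of CLDN8, and in part those of CLDN10, thus rest on levels near background.

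Of 39 other tight junction genes matched, 6 rose and 2 fell between GD100 and GD165 controls, beside 6.32% of all probes that rose and 5.2% that fell, with a median of 0.10. Among the risers were the occludin relatives MARVELD3 (1.09) and MARVELD2 (0.66), the polarity protein CRB3 (1.06) and LSR (0.63), which recruits MARVELD2 to tricellular corners. Those that fell were CLDN11 (-0.76), a claudin of myelin and of Sertoli cells, and the scaffold MAGI2 (-0.55). In the BPA arm 3 rose, among them CRB3 (0.87) and MARVELD2 (0.59). CLDN19 (-1.69), CLDN11 (-0.95) and the polarity protein PARD3 (-0.52) fell there, and the median was 0.04.

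Among other adherens junction genes the counts were near the shares over all probes (6.32% and 5.2%). In controls 2 of 24 rose, NECTIN4 (1.19) and plakoglobin (JUP, 0.56), and 2 fell, CDH16 (-1.14), a cadherin of kidney epithelium, and CDH11 (-0.67), the cadherin of mesenchyme. In the BPA arm JUP rose (0.46) and CDH3 (-0.74) and CDH11 (-0.64) fell. The medians were 0.11 and 0.09, below those of the 9 junction genes, and this difference between lists was not tested.

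Desmosomes, which anchor keratin filaments at the cell border, moved more in one direction. In controls 6 of 13 genes rose and 0 fell, beside 6.32% and 5.2% of all probes, with a median of 0.63. The largest rises were those of PKP1 (2.35), PERP (1.35), PPL (1.25) and PKP3 (0.76). In the BPA arm PPL (0.82) and desmoplakin (DSP, 0.71) rose and 0 fell, beside 4.82% and 4.86% of all probes, and the median was 0.41. PKP1 is also a squamous-epithelium marker. Without GD165 control replicate 6 the desmosome count in controls was 3, when 815 of all 20217 probes rose, against 1277 with it.

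Of 22 regulators of the epithelial state, 5 rose in controls (median 0.69) and 4 in the BPA arm (median 0.34), and 0 fell in either. The list mixes activators with repressors of that state (ZEB1, ZEB2, SNAI1, SNAI2, TWIST1 and TWIST2), so its counts and medians have no single meaning. In the BPA arm ZEB2 (0.42) and SNAI1 (0.55) were positive. ZEB1 (-0.32), SNAI2 (-0.32), TWIST1 (-0.02) and TWIST2 (-0.16) were negative there, and none of these repressors was called. Over all probes 6.32% rose and 5.2% fell in controls, and 4.82% and 4.86% in the BPA arm. FOXA2, the transcription factor of uterine glands, rose by 2.38 in controls and 2.73 with BPA. At GD100 FOXA2 was measured on 3 of 5 arrays in each arm, with means of 4.04 in controls and 4.07 with BPA. The size of its rise thus depends on signals near background. GRHL1 (1.20 and 1.32) and GRHL2 (1.06 and 1.04), which turn on junction genes in other epithelia, also rose in both, and KLF4 (1.17) rose with BPA. Without GD165 control replicate 6 the count in controls was 3, when 815 of all 20217 probes rose.

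Markers of simple epithelium moved with the claudins. In controls 14 of 22 rose and 0 fell, beside 6.32% and 5.2% of all probes, with a median of 0.76. The risers included FOXA2 (2.38), MUC1 (1.48), TSPAN1 (1.36) and SPINT1 (1.34). Without GD165 control replicate 6, when 815 of all 20217 probes rose and 697 fell, 9 of 22 were called. In the BPA arm 8 of 22 rose and 0 fell, beside 4.82% and 4.86% of all probes, with a median of 0.55. The risers there included FOXA2 (2.73), KRT7 (1.23), MUC1 (1.13) and SPINT1 (1.11). Not all markers went up, as 2 of the 22 had a negative difference in controls and 4 in the BPA arm. In the BPA arm these were KRT8 (-0.73, from a probe near background), PROM1 (-0.51), MAL2 (-0.12) and KRT19 (-0.04). FOXA2 was near background at GD100 in both arms. The mean level of the list was 10.99 to 11.63 in GD100 controls and 11.93 to 12.34 in GD165 controls, and 11.15 to 11.48 and 11.74 to 12.06 in the BPA groups, without overlap between ages. The part of this shift in the rise of the claudins was not tested. At GD165 the list had a median difference of -0.32 with BPA, with 18 of 22 negative and 0 called.

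Squamous-epithelium markers gave 2 called of 29 in controls (PKP1 and LGALS7, 1.74), 0 in the BPA arm, and medians of 0.64 and -0.13. Over all probes 6.32% rose in controls and 4.82% in the BPA arm, so the 2 of 29 lay near the share in controls. At GD165 25 of the 29 were lower with BPA (median -0.90, 0 called), and 22 of the 29 without GD165 control replicate 6 (median -0.52). In controls the median with age was 0.05 without it. GD165 control replicate 6 had the highest mean of this list, and without it 0 of the 29 were called in controls (limma). KRT5, KRT14 and KRT15, its first markers, reached 15.46, 13.23 and 13.996 at most among the GD165 controls and 13.40, 10.46 and 10.80 at most among the GD165 BPA animals. The part of squamous cells in the levels of CLDN1, CLDN8 and OCLN was not tested. Without this animal CLDN10 in controls had an adjusted p of 0.000189 (limma).

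**Figure D4:**
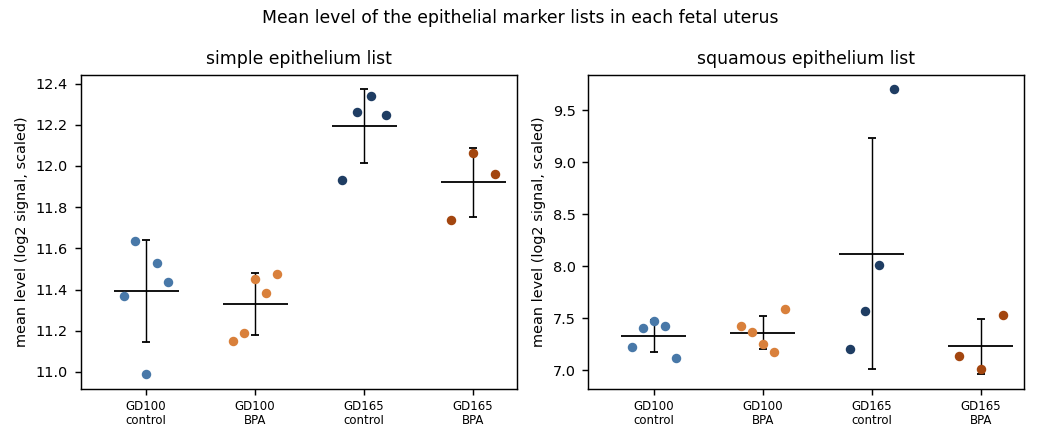
Mean level (log2 signal, scaled, y axis) of 22 simple-epithelium and 29 squamous-epithelium markers in each fetal uterus by group (x axis); lines are means and bars 1 SD. The simple-epithelium list separates the ages, and in the squamous list GD165 control replicate 6 stands alone at 9.70.

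Markers of other cells that carry junctions were read beside these. Over all probes 6.32% rose and 5.2% fell in controls, and 4.82% and 4.86% in the BPA arm. Of 11 endothelial markers 1 rose in controls (VWF, 1.30) and 2 in the BPA arm (VWF, 1.37, and ESAM, 0.54), and the medians were 0.39 and 0.50. Of 6 mesothelial markers ITLN1 (4.08) and UPK1B (3.00) rose in controls, and the same genes rose with BPA (4.89 and 2.54). The medians of the 6 were 0.13 and 0.12, and 2 of the 6 were negative in each arm. In the BPA arm these were CALB2 (-0.77; limma, adjusted p = 0.0126) and WT1 (-0.03). Of 5 Schwann cell markers 1 rose in controls and 0 in the BPA arm, and CD74 of 9 leukocyte markers rose in both (2.14 and 2.39). Of 10 smooth muscle markers 4 and 2 rose (medians 0.40 and 0.37), of 11 skeletal muscle markers 5 and 1 (medians 4.35 and 2.47). Without GD165 control replicate 6, when 815 of all 20217 probes rose, the counts in controls were 0 for endothelium, 1 for smooth muscle and 1 for skeletal muscle. Of 9 stromal markers 1 was called lower in controls (PDGFRA, -0.48) and 0 in the BPA arm, where PDGFRA was also -0.48 (limma, adjusted p = 0.0126). In each arm 8 of the 9 were negative, with medians of -0.17 and -0.22. Of 5 erythroid markers 1 rose in each arm, and of 6 markers of position along the tract 1 rose in each (ESR1, 0.73 and 0.95), with 2 lower in controls and 1 with BPA. Their part in the levels of TJP1 and CLDN10, which did not follow the simple-epithelium list, was not tested.

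**Figure D5:**
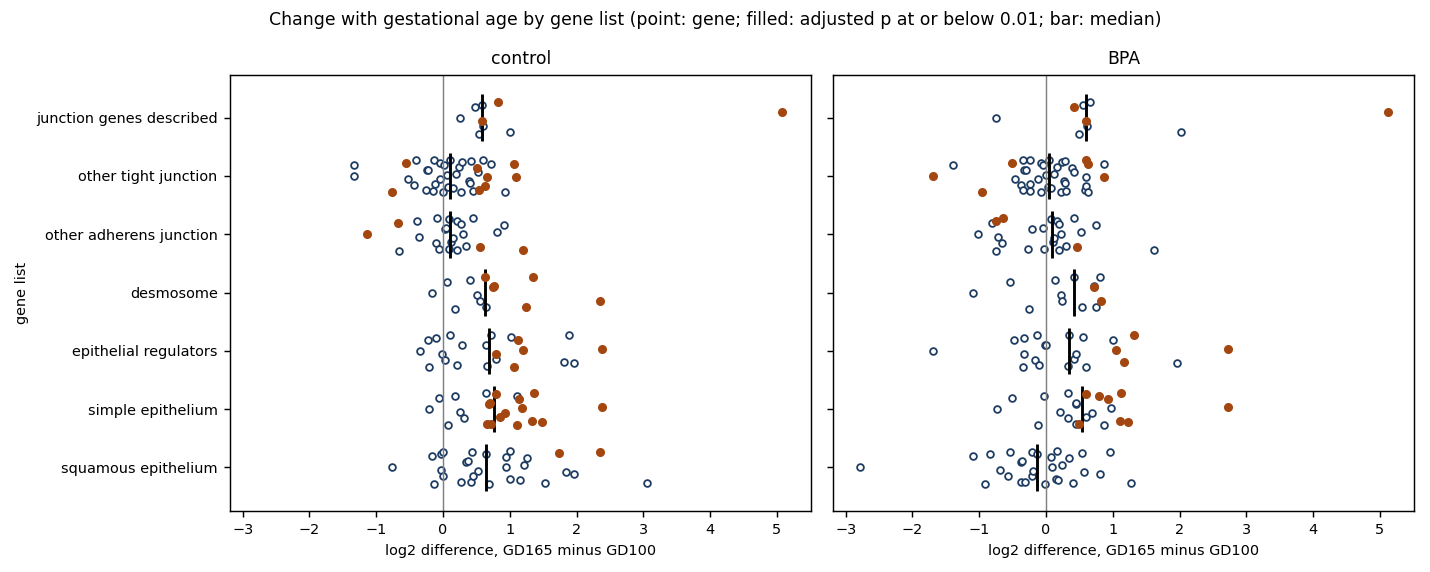
Log2 difference between GD165 and GD100 (x axis) of each gene of 7 lists (y axis) in control and BPA-exposed uteri; points are genes, filled where the adjusted p was 0.01 or less, and bars are list medians. The medians of the described junction genes (0.59 and 0.60) lie to the right of those of other tight junction (0.10 and 0.04) and adherens junction genes (0.11 and 0.09).

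With BPA against control 0 genes of any list were called at either age (limma). At GD165 the smallest p among other tight junction genes were those of LSR (-0.47, limma, adjusted p = 0.413) and PARD3 (-0.26, adjusted p = 0.528). Among adherens junction genes they were CDH4 (-1.78, adjusted p = 0.33) and NECTIN1 (-0.26, adjusted p = 0.509), and among desmosome genes PPL (-0.47, adjusted p = 0.479) and DSG1 (-1.44, adjusted p = 0.523). DSG1 was measured on 0 GD165 BPA arrays, with means of 1.74 with BPA and 3.18 in controls, so its difference rests on signals near background. KRT19 (-0.78, adjusted p = 0.296) and KRT18 (-0.58, adjusted p = 0.5) had the smallest p of the simple-epithelium list. At GD100 the smallest p were those of CGNL1 (-0.22) and MAGI1 (-0.34) among tight junction genes, LMO7 (-0.87) and CDH11 (0.18) among adherens junction genes, and EVPL (0.26) and DSP (-0.26) among desmosome genes, each with an adjusted p of 0.99993. LMO7 was measured on 0 GD100 BPA arrays and 1 GD100 control array, so its difference also rests on signals near background.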

How the data were processed

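The authors scanned each array and extracted the signals with Agilent Feature Extraction 9.5, per the labels. The deposited processed signal is an intensity on a linear scale, which the scanner software had corrected for background and for spatial trend, and arrays were not scaled to each other. The table of all arrays held the same values (711467 of 711467 identical).

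From these intensities control and outlier spots were left out, log2 signals were averaged over the 2 spots per probe (20217 probes), and each array's 75th percentile was subtracted (the mean percentile, 12.62, was added back). Names came from the array's descriptions or reference tables of gene IDs for 18031 probes (89.2%). limma 3.58.1 (R 4.3.3; lmFit, eBayes) was fitted to all 17 arrays in 4 groups. Tests were two-sided with Benjamini-Hochberg adjustment over all probes and a threshold of 0.01. The fit was tested on simulated data. Each array is 1 fetus, and the number of arrays limits the precision. Replicate numbers come from the labels.

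Where no array of a group had a probe well above background, the fold is a bound of the brighter group's mean against the higher, on each array, of the probe's own signal and the lowest signal well above background. No bound is given for CLDN8, which only 1 array of each GD165 group measured. The members and the gene lists were chosen with earlier results of these data known. Named genes are all members, up to 4 called each way per list and comparison with the largest differences (the 2 with the smallest p where none was called), the first 3 genes of epithelial cell type lists, and the 3 nearest genes per member (for CLDN8 2, as the other has only a cluster number). Called genes of the muscle and erythroid lists are given as counts only, and some other called genes are not reported here by name. KRT13 was named after its values were seen. Alternatives were normexp (offset 50), median, quantile or no scaling, a filter on dim probes (well above background on at least 3 arrays), outlier spots kept, the compared groups alone, a trended robust prior, error model weights, slide or replicate number as a block, an adjusted p of 0.05, probe means and leaving out each animal. The array's coordinates name no usable build and are not printed, and pairwise r between arrays was 0.974 to 0.995.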

Additional observations from a re-analysis of the deposited data

Results flagged for a closer look

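Among 30 groups of 4 or 5 animals examined, 2 held an animal set apart from the rest by more than Dixon's 95% critical value, and chance flags about 1 in 20 groups. CLDN7 in GD100 control replicate 3 was 14.01 against 14.46 to 14.54 in the other 4 (gap over range 0.846). TJP1 in GD100 control replicate 4 was 15.05 against 15.25 to 15.33 (gap over range 0.72). Neither animal was left out of the values above.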

How the results depend on the processing

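Between GD100 and GD165 controls 3 of the 9 genes were called, and 1 (CLDN10) with slide as a fixed block, 1 (CLDN10) with replicate number as a block and 6 at an adjusted p of 0.05 (21.2% of all probes). Leaving out each animal gave 1 to 4, with CLDN10 as the 1 left without GD165 control replicate 6 or GD100 control replicate 3. In the BPA arm 3 were called, 1 (CLDN10) with slide as a fixed block or the compared groups fitted alone, 7 at an adjusted p of 0.05 (21.0% of all probes), and 1 to 3 with an animal left out, with CLDN10 as the 1 left without GD165 BPA replicate 4 or 5. The BPA comparisons and the difference between them gave 0 under every alternative, 0 to 0 with animals left out. CLDN10 passed in 31 of 31 alternatives in both arms, but the size of its fitted log2 difference depends on signals near background: with normexp, whose offset compresses low signals, it was 1.85 in controls against 5.08, and 2.34 against 5.12 in the BPA arm.

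Replicate numbers are names, not pairs: same-numbered animals of compared groups had deviations that correlated at -0.17 to 0.12. With the replicate block the BPA arm called 2 (CLDN10 and CLDN8).

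Among the 4 comparisons of groups, signs turned in that of BPA with control at GD165, all far from the threshold. The difference between BPA effects kept its sign in 20 of 30 alternatives for CLDN1, 20 for CLDN3, 16 for CLDN7, 19 for CLDN10, 29 for OCLN and 18 for the probe similar to TJP3. With BPA against control at GD165 and no scaling, which moved the median of all probes from -0.02 to 0.14, the differences were CLDN1 0.00575, CLDN7 0.046, OCLN 0.061 and TJP1 0.12, and relative to that median they stayed negative. In the same comparison CLDN8 was -0.063 with normexp. OCLN was 0.021 with slide as a fixed block and 0.027 with the replicate block, and -0.35 to 0.10 with an animal left out, turning without GD165 BPA replicate 3 or GD165 control replicate 5. TJP1 ranged from -0.074 to 0.00537, turning without GD165 control replicate 1. The probe similar to TJP3 was -0.077 with the replicate block and -0.085 to 0.31 with an animal left out, turning without GD165 BPA replicate 4. The causes were not tested. Over all alternatives 209 of the counts of called list genes moved by more than 1.5 times and 1651 did not. CLDN8 has no value under the filter on dim probes, and fitting the compared groups alone has no meaning for the difference between BPA effects, which needs all groups. Signal near background limits CLDN8 and CLDN10 at GD100.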
